A study of Homo sapiens with 2 samples.

Results

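Of 8589 ING5 peaks on chromosomes 1 to 22 and X, 969 (11.3%, exact binomial 95% interval 10.6 to 11.97) lay at an alternative promoter. A peak was counted there when its summit, the base with the most fragments, lay within 1000 bp of an annotated start of a protein-coding gene but more than 1000 bp from every canonical start. The canonical start is that of the transcript that Ensembl takes to represent the gene. These 969 peaks made up 14.8% of the 6527 peaks within 1000 bp of any protein-coding start, and they belonged to 794 genes. The other 5558 of those peaks lay at canonical starts, and 2062 peaks lay at neither. The peaks came from chromatin immunoprecipitation and sequencing (ChIP-seq) with an antibody against ING5 in HepG2, an established human liver cancer line. Cells were untreated, and input DNA from the same line was used only as the control of the peak list.

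Many mammalian genes are transcribed from more than 1 promoter, and the promoters of a gene can differ in tissue use and in the protein that they make. Active promoters of either kind carry histone H3 methylated at lysine 4, the mark that the plant homeodomain finger of ING5 reads. ING5 works as a subunit of MYST family histone acetyltransferase complexes, which acetylate histones near gene starts.

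Peaks rested on 12416160 fragments from the ING5 library and 9915170 from input. Each group had 1 library, so nothing was tested and intervals cover counting error only. Each peak has 3 values set by the authors' peak caller: the pileup (fragments over the summit), the width, and the fold enrichment, the pileup divided by the background expected at that place. Positions are GRCh38, against which 76.0% of summits fell within 1000 bp of a start, and 13.7% against GRCh37. A peak lay at the canonical start in 27.9% of all 19819 protein-coding genes. At alternative starts the share was 5.92% of the 13403 genes with one over 1000 bp from every canonical start. None of 12 hepatocyte, 4 blood, or 4 fibroblast and endothelial marker genes had a peak at a canonical or an alternative start. The peaks therefore give no check of the labelled cell type.

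Alternative starts with an ING5 peak differed among themselves in the sequence just upstream, as the next 7 stretches show. Each is the 250 bases before a start in the RefSeq promoter table (GRCh38.p14), 5′ to 3′ on the gene's strand, with CpG dinucleotides in capitals. The FURIN and JADE1 sequences set a bound alternative start (with a peak) beside the unbound canonical start (without one) of the same gene. The CDKN2A sequence is a CpG-rich alternative start inside a peak. The PRKACB sequence is an unbound canonical start without a CpG, and the AATK sequence a bound alternative start with few. FURIN, PRKACB and AATK were chosen after their values were seen.
FURIN alternative, chr15:90871918-90872167, plus strand: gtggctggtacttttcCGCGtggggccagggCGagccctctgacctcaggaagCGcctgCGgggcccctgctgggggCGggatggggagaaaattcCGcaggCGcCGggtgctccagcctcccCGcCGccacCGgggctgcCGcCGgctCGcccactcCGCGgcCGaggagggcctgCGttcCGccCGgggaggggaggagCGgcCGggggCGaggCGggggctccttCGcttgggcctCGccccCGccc
FURIN canonical, chr15:90868338-90868587, plus strand: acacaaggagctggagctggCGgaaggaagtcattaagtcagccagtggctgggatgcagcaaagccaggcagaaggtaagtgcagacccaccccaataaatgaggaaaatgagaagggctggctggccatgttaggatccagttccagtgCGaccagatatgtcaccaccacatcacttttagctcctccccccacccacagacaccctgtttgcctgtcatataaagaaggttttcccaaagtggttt
JADE1 alternative, chr4:128811594-128811843, plus strand: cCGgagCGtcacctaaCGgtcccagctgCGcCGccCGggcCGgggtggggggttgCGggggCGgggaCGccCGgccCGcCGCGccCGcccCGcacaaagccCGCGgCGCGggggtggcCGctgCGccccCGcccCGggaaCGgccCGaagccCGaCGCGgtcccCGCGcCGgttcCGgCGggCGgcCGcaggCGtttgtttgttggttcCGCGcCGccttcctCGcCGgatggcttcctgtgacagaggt
JADE1 canonical, chr4:128809450-128809699, plus strand: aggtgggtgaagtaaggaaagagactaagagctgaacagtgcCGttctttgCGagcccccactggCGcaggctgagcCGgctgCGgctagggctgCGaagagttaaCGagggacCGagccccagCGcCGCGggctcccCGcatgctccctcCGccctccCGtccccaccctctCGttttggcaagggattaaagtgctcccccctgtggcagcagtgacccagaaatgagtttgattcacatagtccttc
CDKN2A alternative, chr9:21995325-21995574, minus strand: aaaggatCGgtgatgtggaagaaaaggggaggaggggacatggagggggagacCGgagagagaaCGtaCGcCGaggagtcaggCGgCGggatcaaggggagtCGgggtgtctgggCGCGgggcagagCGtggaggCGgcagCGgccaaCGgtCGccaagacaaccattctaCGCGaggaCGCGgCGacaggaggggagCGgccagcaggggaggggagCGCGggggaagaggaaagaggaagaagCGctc
PRKACB canonical, chr1:84144021-84144270, plus strand: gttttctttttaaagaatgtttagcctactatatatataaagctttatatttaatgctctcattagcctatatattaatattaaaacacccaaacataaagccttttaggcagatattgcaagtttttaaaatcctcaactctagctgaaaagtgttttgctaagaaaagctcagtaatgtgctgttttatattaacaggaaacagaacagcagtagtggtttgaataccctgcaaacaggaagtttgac
AATK alternative, chr17:81131955-81132204, minus strand: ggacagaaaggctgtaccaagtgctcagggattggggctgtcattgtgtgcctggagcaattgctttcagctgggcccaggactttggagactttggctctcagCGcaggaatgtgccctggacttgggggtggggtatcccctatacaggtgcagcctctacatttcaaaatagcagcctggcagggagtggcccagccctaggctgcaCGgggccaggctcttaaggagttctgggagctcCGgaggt

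The FURIN alternative stretch held 28 CpG dinucleotides and all of its 250 bases lay inside an 11.3-fold peak, while the stretch before the canonical start, without a peak, held 2. At JADE1, 42 stood against 15, and 51 bases of the alternative stretch lay inside a 7.55-fold peak. The CDKN2A stretch, with 24, lay wholly inside a 9.47-fold peak. The PRKACB canonical stretch held 0, whereas the stretch before an alternative start of that gene, with 61 bases inside its 10.1-fold peak, held 37. The AATK stretch ran the other way: it held 3 and lay wholly inside a 12.4-fold peak.

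About as many of the peaks had a partner at the canonical start of their gene as had none. A canonical peak, with its summit within 1000 bp of the canonical start, was present in the same gene for 495 of the 969 peaks (51.1%, 47.9 to 54.3). By gene this was 399 of 794 (50.3%, 46.7 to 53.8). The background was 27.9% of all 19819 protein-coding genes. It was 31.5% of the 13403 genes with an alternative start over 1000 bp from every canonical start, called a separate start below. These 13403 genes serve below as the denominator of gene shares, but peaks at closer alternative starts were counted too. The remaining 395 genes had a peak at an alternative start but none at the canonical one, with peaks away from starts not considered. In 124 of these 395 genes a peak interval still reached into the window around the canonical start, and in 271 (68.6%, 63.8 to 73.2) none did.

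The distance between the alternative and the canonical start of a gene ran from 19 bp to 1945365 bp, with a median of 2566 bp (interval of the median 2235 to 2951) and quartiles of 1124 and 16561 bp. The alternative start lay downstream of the canonical one for 761 peaks (78.5%). The median distance was 3929 bp (2736 to 4980) for peaks whose gene lacked a canonical peak and 1979 bp (1706 to 2452) for those whose gene had one.

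**Figure D1:**
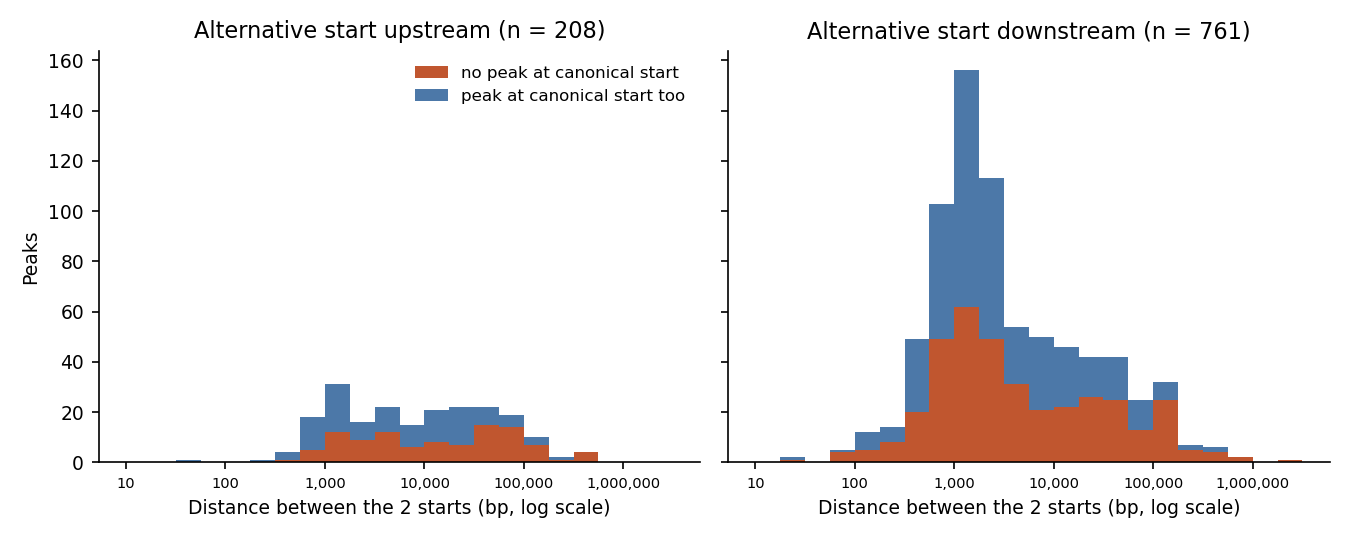
Number of ING5 peaks at alternative starts (vertical axis) by distance between the alternative and the canonical start of the gene (bp, log scale), for the 208 peaks with the alternative start upstream and the 761 with it downstream. Bars are stacked by whether the canonical start had a peak; the tallest bars are downstream starts near 1,000 bp, and peaks without a canonical partner reach the longest distances.

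The 3 distance classes parted peaks that border the canonical promoter from those far inside or outside the gene. Up to 2 kb between the starts there were 431 peaks (44.5%), of which 57.8% (53.0 to 62.5) had a canonical partner. Their intervals often ran into the canonical window of their own gene, in 213 of 431 (49.4%). From 2 to 10 kb there were 235 peaks, 51.9% (45.3 to 58.5) with a partner, and 5 reached their own gene's canonical window. Beyond 10 kb there were 303, 40.9% (35.3 to 46.7) with a partner, and none reached its own gene's canonical window. Canonical windows of other genes were not counted here. Of the 64 peaks with starts over 100 kb apart, 15 (23.4%, 13.8 to 35.7) had one.

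The short-distance class holds peaks that the rule separates from the canonical promoter by little. In 209 peaks the alternative start lay within 1000 bp of its own canonical start, and 449 summits (46.3%) lay no more than 2000 bp from some canonical start. SIM2, a developmental transcription factor gene, had the shortest distance, 19 bp. Its summit lay 994 bp downstream of the alternative start, with 8.09-fold enrichment. RASSF3 (27 bp, 5.33-fold), LSS (50 bp upstream, 6.47-fold), ABCA2 (66 bp, 7.55-fold) and CSTB (70 bp, 8.09-fold) followed. For these genes the rule parted starts that are nearly the same.

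At the rule's edges, pileups on either side overlapped, apart from TENT5A. The peaks of SIM2, MAP4 and RASSF3, 994 to 999 bp from an alternative start, had pileups of 14, 11 and 11 fragments. Those of BMP2, KLHL21 and NCKAP5L, 1003 bp away or less and so left out, had 17, 16 and 10. Beside canonical starts, AGPAT2, CLCN2 and RABGGTB, 1003 bp away or less and so counted, had 12, 8 and 8. TENT5A, SCNN1A and CMBL, 998 to 999 bp away and so left out, had 36, 12 and 12.

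To set aside such borders, starts over 2000 bp from every canonical start were counted on their own. Of 12578 genes with such a start, 431 (3.43%) had a peak there. The share was 4.88% (195 of 3997) of genes with a canonical peak and 2.75% (236 of 8581) of genes without. Among the 431 genes, 195 (45.2%) had a canonical peak as well.

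By start, peaks were found at 1178 of 57478 such alternative starts (2.05%), with a start counted for any peak in its window. Starts upstream of the canonical one had a peak in 7.01% of 5038 and downstream starts in 1.57% of 52440. Starts of a complete protein-coding transcript had one in 4.65% of 12705, and starts carried only by transcripts annotated with an incomplete 5′ end in 0.734% of 9536. Starts in GENCODE's basic set, its subset of representative transcripts, had one in 4.95% and the others in 1.57%. Neighbouring starts share peaks and transcripts, so these shares are descriptions.

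The transcript that starts nearest to the summit was of the protein_coding type for 545 of the 969 peaks (56.2%, 53.1 to 59.4). It was a transcript of a coding gene with no defined coding sequence for 197, a retained intron for 165 and a target of nonsense-mediated decay for 60. For 82 peaks (8.46%) its 5′ end was annotated as incomplete. A complete start of the protein_coding type lay somewhere within 1000 bp for 628 peaks (64.8%). Summits lay in an intron of the gene for 500 peaks, in an exon for 398 and upstream of the gene's outermost start for 71.

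The gene named by the rule was not always the one whose canonical start was closest. For 171 of the 969 peaks (17.6%, 15.3 to 20.2) the nearest canonical start belonged to another gene, and in the class beyond 10 kb this was 136 of 303 (44.9%). In 35 peaks another gene's canonical start lay within 2000 bp of the summit. The SPESP1 peak, assigned to a start 112304 bp upstream of its canonical one, lay 1704 bp from the canonical start of ANP32A. A HOXA9 peak lay 1676 bp from that of HOXA10, and the HOOK2 peak, chosen after its value was seen, 1037 bp from that of JUNB, an early response transcription factor gene. Which gene such a peak belongs to was not tested.

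Summits sat closer to alternative starts than to canonical ones. The median position was 159 bp downstream (interval 127 to 188) of alternative starts and 354 bp downstream (345 to 363) of canonical ones. Within 200 bp of the start lay 311 of 969 summits (32.1%, 29.2 to 35.1) against 912 of 5558 (16.4%, 15.4 to 17.4). A gene often has several alternative starts, and 589 of the 969 windows held more than 1, so the nearest of several is closer by construction. The share of this in the difference was not tested.

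Summits lay downstream of the alternative start in 633 of 969 peaks (65.3%, 62.2 to 68.3) and of the canonical start in 4793 of 5558 (86.2%, 85.3 to 87.1). For the 209 peaks whose alternative start lay within 1000 bp of its own canonical start, the rule itself fixes the side. The fullest 100 bp bin was 100 to 200 bp downstream of alternative starts, with 103 summits, and 200 to 300 bp downstream of canonical starts, with 814. Beyond 10 kb, where no peak reached its own gene's canonical window, the fullest bin was again 100 to 200 bp downstream, with 39 of 303 summits. There 65.7% (60.0 to 71.0) lay downstream.

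**Figure D2:**
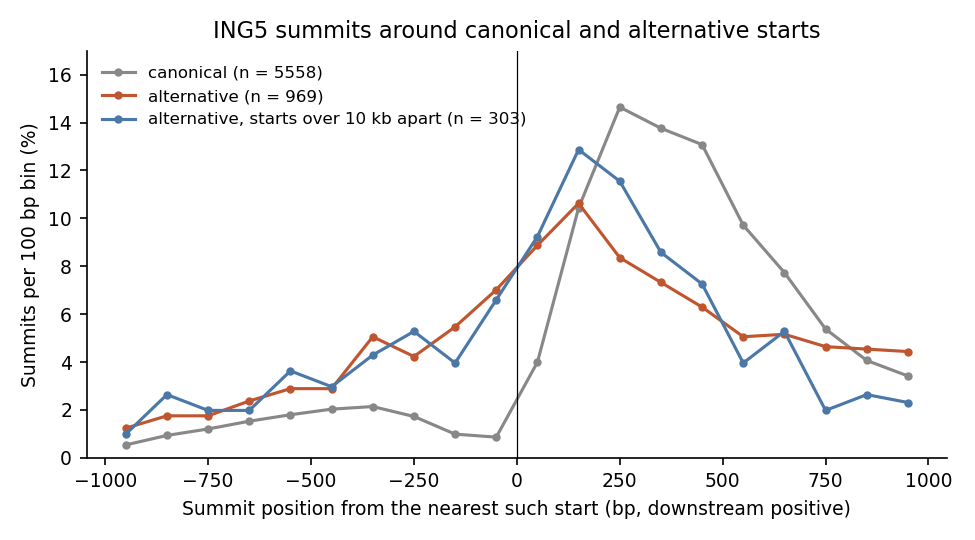
Share of ING5 summits (percent, vertical axis) in each 100 bp bin by position from the nearest start (bp, downstream positive), for 5558 peaks at canonical starts, 969 at alternative starts and the 303 of these with starts over 10 kb apart. Canonical peaks are fullest 200 to 300 bp downstream and sparse just upstream, while both alternative curves are fullest 100 to 200 bp downstream.

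Peaks at alternative starts had enrichments close to those at canonical starts. Their median fold enrichment was 6.47 (quartiles 5.40 and 8.09), against 6.85 at canonical starts and 5.40 at peaks away from starts. Median widths were 328, 373 and 263 bp in the same order, and median pileups 12, 12 and 10 fragments. The class up to 2 kb had a median of 6.92-fold and 387 bp. The 2 longer classes had 5.94-fold each, with 296 and 300 bp. Most stood over the lowest, genome-wide background of 0.853 fragments: 64.4% at alternative starts, 60.8% at canonical ones and 57.8% elsewhere.

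Where a gene had peaks at both kinds of start, the canonical one was more often the higher. In 325 of 495 pairs (65.7%, 61.3 to 69.8) the alternative peak had the lower fold enrichment than the best canonical peak of its gene, in 153 (30.9%, 26.9 to 35.2) the higher, and in 17 they were equal. Median enrichments were 6.26 and 7.99. Differences over 1.5 times favoured the canonical peak in 160 pairs and the alternative in 48. The alternative peak was the higher in 36.9% of pairs up to 2 kb, 27.9% from 2 to 10 kb and 21.8% beyond 10 kb. The best of several canonical peaks was used, and genes with several alternative peaks count more than once.

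**Figure D3:**
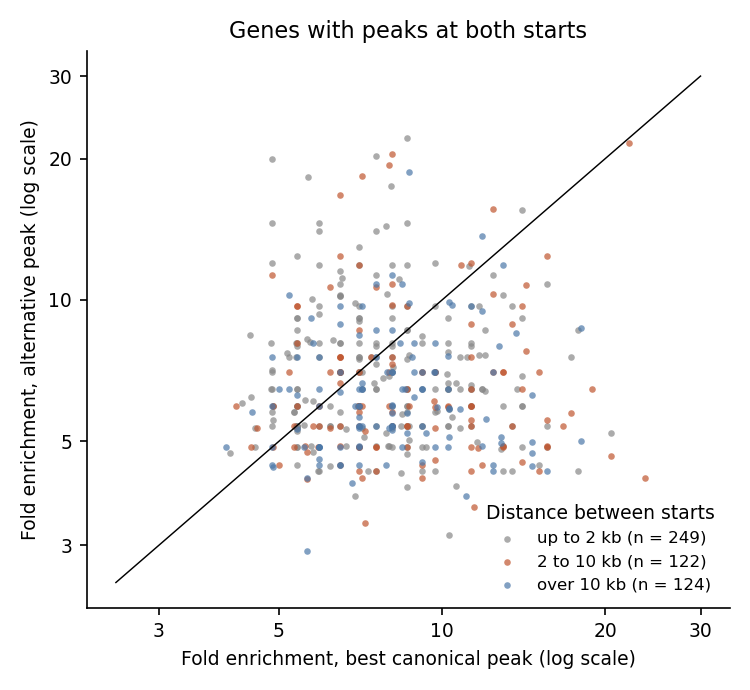
Fold enrichment of the alternative peak (vertical, log scale) against that of the best canonical peak of the same gene (horizontal, log scale) for 495 pairs, coloured by distance between the starts; the line marks equal values. More points lie below the line (325) than above it (153).

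The 10 most significant peaks at alternative starts lay at TFAP2A, IGF2BP3, RUNX1, HOXA9, SMC4, CDKN2C, PTBP1, PITX1 and SLC38A1, with 2 of them at TFAP2A. TFAP2A, which encodes a transcription factor of neural crest and skin development, had 3, with 118, 43 and 9 fragments and 63.2-, 21.2- and 5.01-fold enrichment. The first is 11697 bp wide, at chr6:10409253-10420949. It covers the canonical start 4980 bp upstream of the alternative one, and the nearest alternative start to each of the 3 is of a transcript with an incomplete 5′ end. TFAP2A is thus counted without a canonical peak only because of where the summit lies.

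Such cover was rare among the 969. In 5 peaks the interval contained the gene's own canonical start: those of TFAP2A, CDKN2C, MYC, PKM and SLC38A2, the last chosen after its value was seen. CDKN2C, which encodes an inhibitor of cyclin-dependent kinases, had 2 peaks of 15.98- and 15.6-fold around a start 1539 bp upstream of its canonical one. IGF2BP3, whose protein binds messenger RNAs in fetal tissue and tumours, had 73 fragments and 39.9-fold, with its summit 59 bp past a start 989 bp downstream of the canonical one. SMC4, a condensin subunit gene, had 23.5-fold at a start 832 bp downstream. Both intervals reached the canonical window.

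RUNX1, the blood development transcription factor gene known for a distal and a proximal promoter, had its peaks far from its canonical start. The tallest, at chr21:34885813-34887181, had 53 fragments and 29.1-fold enrichment. Its summit lay in an exon, 240 bp past the start of RUNX1-205, which is 162119 bp downstream of the canonical one. The other 2 had 15 and 13 fragments, 8.63- and 7.55-fold, at starts 159512 and 160612 bp downstream. No peak lay at the canonical start. RUNX1 was the only gene among the 10 most significant whose starts were over 100 kb apart.

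HOXA9, a homeobox gene of body patterning, had peaks of 26.98-, 17.8- and 5.40-fold at starts 4200, 9643 and 3907 bp upstream of its canonical one, and none at that start. All 3 nearest transcripts have no defined coding sequence, and the gene lies in a dense cluster. WNK1, a kinase gene of ion transport, had 19.3-fold at a start 477 bp downstream, NFIB, a transcription factor gene, 18.3-fold at 493 bp, and TRAF4, an adaptor gene, 17.8-fold at 212 bp. These last 3 peaks reached the canonical window.

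Among genes with peaks at both starts, several had the higher at the alternative one. PTBP1, which encodes a splicing regulator, had 40 fragments and 22.1-fold at a start 976 bp downstream, against 15 fragments and 8.63-fold at the canonical one. The amino acid transporter gene SLC38A1 had 40 against 13 fragments, 20.3- and 7.55-fold, with its summit 3 bp from the alternative start. ALPP, the placental alkaline phosphatase gene, had 37 against 14 fragments, 20.5- and 8.09-fold. PDE3A, a phosphodiesterase gene, had 40 against 11, 18.3- and 5.65-fold. PITX1, a homeobox gene of hindlimb development, was nearly even, with 39 against 40 fragments and 21.6- against 22.1-fold.

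These genes were picked for strong alternative peaks, so their direction is set by that choice. In other genes the canonical peak was the higher. NR3C1, the glucocorticoid receptor gene, had 7.01-, 7.01- and 5.94-fold at its alternative starts and 12.9-fold at the canonical one. SREBF2, the regulator of cholesterol synthesis, had 4.44- against 15.1-fold, and LSS, an enzyme of that pathway, 6.47- against 10.8-fold.

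In 138 genes without a canonical peak, all peaks counted at alternative starts had starts over 10 kb from the canonical one. Peaks elsewhere in these genes were not considered, and in some of the genes a peak interval reached the canonical window. The longest distance was at DMD, the dystrophin gene, known for internal promoters that make short dystrophins. Its peak had 11 fragments and 6.47-fold, 293 bp upstream of a start 1945365 bp into the gene. PDE4D, a phosphodiesterase gene with many promoters, had 22 fragments and 12.4-fold at chr5:59038711-59039846. The summit lay in an exon, 31 bp past a protein-coding start 854214 bp downstream of the canonical one. A second PDE4D peak had 17 fragments and 8.30-fold at 125217 bp. ROBO1, an axon guidance receptor gene, had 16 fragments and 7.55-fold, 178 bp past a start at 748983 bp.

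Of the 5 longest distances, the other 2 had fewer fragments. ALDH1A2, an enzyme gene of retinoic acid synthesis, had 7 fragments and 4.32-fold, 854 bp from a start 408202 bp upstream of the canonical one. OXR1, a gene of oxidation resistance, had 10 fragments and 5.07-fold at 387701 bp. Of SGK1 and PRKACB, kinase genes chosen after their values were seen, SGK1 had 3 peaks of 24, 13 and 11 fragments, 11.1-, 7.55- and 6.47-fold, at starts 142121 and 145373 bp downstream. PRKACB, a catalytic subunit gene of protein kinase A, had 20 and 15 fragments, 10.1- and 7.42-fold, at starts 66209 and 66127 bp upstream. In both genes the canonical start had no peak.

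**Figure D4:**
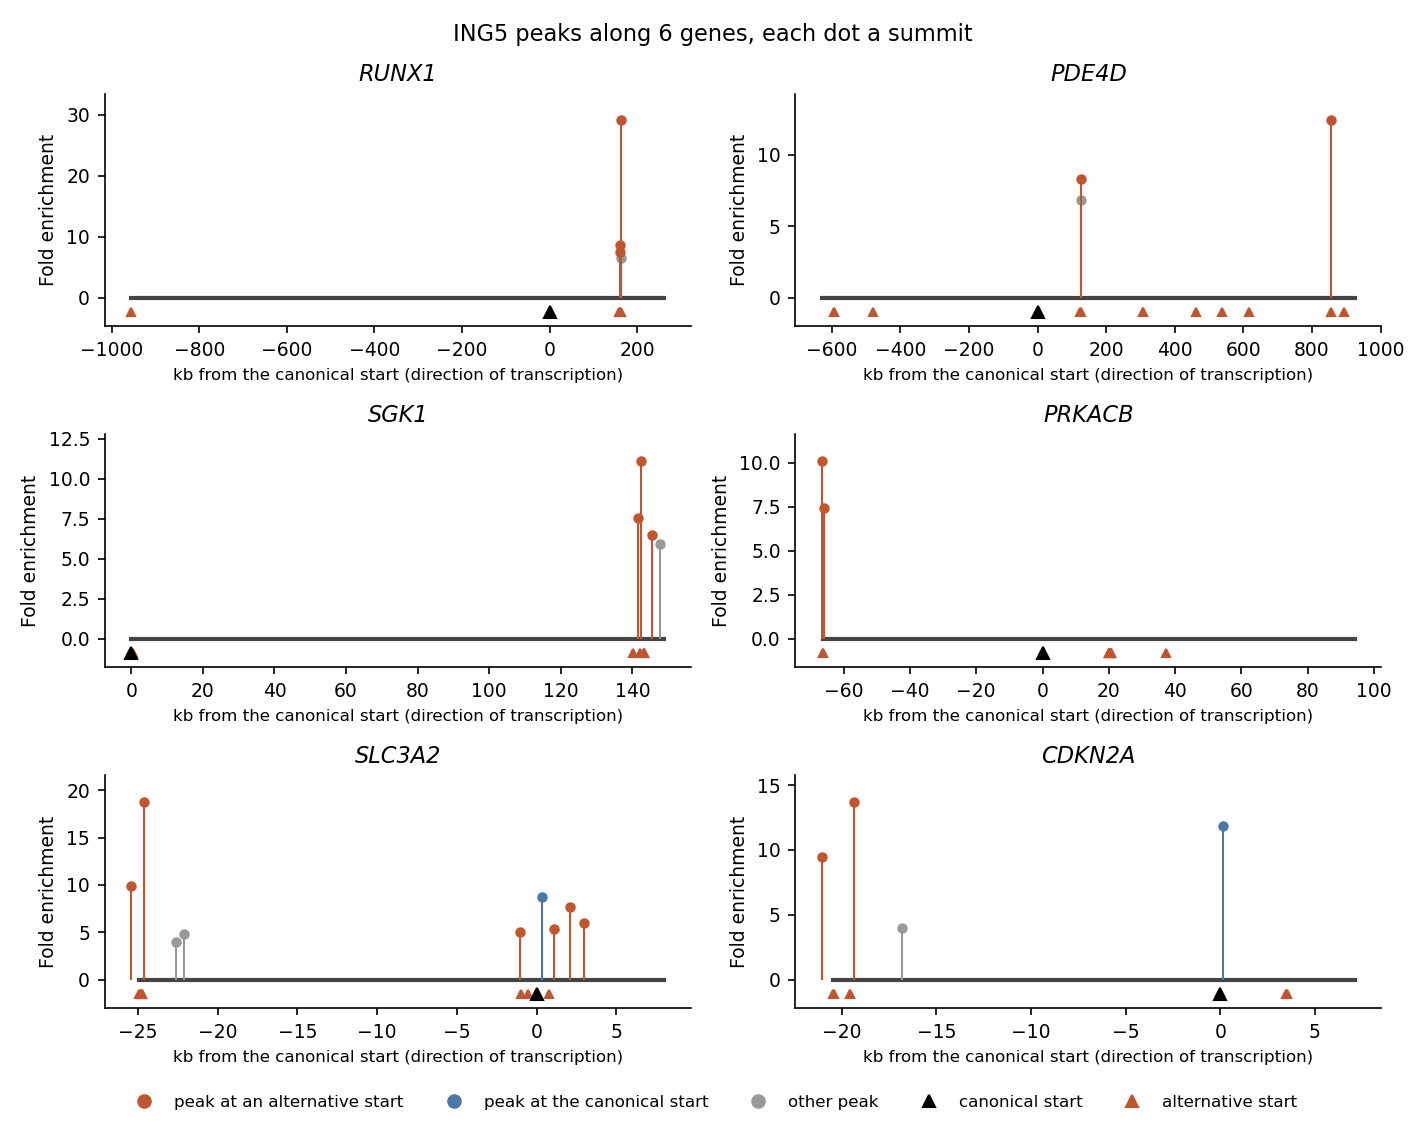
ING5 peaks along 6 genes: fold enrichment at each summit (vertical axis) by distance from the gene's canonical start (kb, in the direction of transcription). Orange dots are peaks at alternative starts, blue at the canonical start, grey other; triangles mark the canonical start (black) and alternative starts of complete protein-coding transcripts (orange), and the grey bar the gene. RUNX1, PDE4D, SGK1 and PRKACB have no blue dot, while SLC3A2 and CDKN2A have peaks at both kinds of start.

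CDKN2A has first exons for 2 unrelated tumour suppressors, INK4a and, farther upstream, ARF, and it had peaks at both. The canonical start had 21 fragments and 11.9-fold. The upstream peaks had 27 and 19 fragments, 13.7- and 9.47-fold, at starts 19535 and 20444 bp upstream, the first at chr9:21993360-21994408 with its summit in an exon. RASSF1, another tumour suppressor gene with a second promoter, had 14 fragments and 8.09-fold at the canonical start. Its peaks at starts 2603 and 3372 bp downstream had 19 and 21 fragments, 10.8- and 9.77-fold. MYC, the growth regulator gene, had 33 fragments and 18.3-fold near a start 2842 bp downstream, in a peak that covers its canonical start, and 15 and 7.10-fold in its canonical peak.

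These are part of a list of 59 genes known from textbooks for alternative promoters, of which 56 have a separate start. Peaks at an alternative start were found in 8 genes (14.3% of the 56), against 794 genes (5.92% of the 13403). They were TFAP2A, RUNX1, TPM1 and DMD without a canonical peak and MYC, CDKN2A, RASSF1 and NR3C1 with one. TPM1, the tropomyosin gene, had 8.63- and 5.40-fold at starts 1220 and 6079 bp downstream, and a peak interval reached its canonical window. Most of the list, 48 genes, had no peak at a counted alternative start.

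Genes of the ING family and of MYST complexes were among the 794. In this list 5 genes had such a peak (31.2% of the 16 with a separate start), against 5.92% over the 13403 genes. A canonical peak was present in 4 of all 17 listed genes, against 27.9% of all protein-coding genes. BRD1, a scaffold subunit, had 7.96-fold 1973 bp downstream, ING1 7.005- and 5.52-fold at 1737 and 1282 bp, and JADE1, another scaffold, 7.55- and 6.47-fold at 2144 bp. These 3 had no canonical peak, as 395 of all 794 genes with an alternative peak (49.7%) had none. At BRD1 and ING1, however, a peak interval reached the canonical window, while none did at JADE1. JADE2 had 7.01-fold against 9.71-fold at its canonical start, and BRPF1 6.47- against 9.17-fold. None of these distances exceeded 10 kb. ING5, KAT7, KAT6A, KAT6B, ING4, BRPF3 and MEAF6 had no peak at a counted alternative start.

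Regulators of small GTPases had such peaks in 8 genes (6.78% of the 118 with a separate start), near the 5.92% over the 13403 genes. In 5 of the 8 the canonical start had none, as in 395 of all 794 genes with an alternative peak (49.7%). ARHGEF18 had 8.09-fold at a start 46249 bp downstream, ARHGEF3 7.83-fold 276866 bp upstream and DOCK9 5.99-fold 108561 bp upstream. ARHGEF7 had 7.01- and 5.98-fold at 38337 and 38428 bp downstream. ARHGAP21 had peaks at both starts, 11.3-fold at the alternative and 4.86-fold at the canonical one.

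Zinc finger genes had them in 10 genes (3.23% of the 310 with a separate start), against 5.92% over the 13403 genes. A canonical peak was present too in 8 of the 10, against 50.3% of the 794 genes. ZNF721 had 8.09-fold 25105 bp downstream against 5.77-fold at its canonical start, and ZNF692 6.89- against 14.03-fold. ZNF254 had 7.01-fold at a start 53782 bp upstream and no canonical peak. Of 26 lipid synthesis genes, 19 had a canonical peak, against 27.9% of all protein-coding genes. LSS and SREBF2, 2 genes in all, had a peak at an alternative start, where 20 of the 26 genes have a separate start. The share over the 13403 genes was 5.92%. The alternative starts of LSS and SREBF2 lay 50 and 399 bp from the canonical ones, so neither was a separate start.

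Several genes had more than 1 such peak: 104 had 2, 24 had 3 and 6 had 4 or more. SLC3A2, which encodes the heavy chain of amino acid transporters, had 6, from 9 to 35 fragments and 5.04- to 18.8-fold. The tallest, at chr11:62856078-62857606, lay 138 bp past a protein-coding start 24728 bp upstream of the canonical one, whose own peak had 24 fragments and 8.69-fold. RHOF, a small GTPase gene, had 19.4- and 7.01-fold at a start 6989 bp upstream against 7.99-fold at the canonical one. PKM, the pyruvate kinase gene, had 15.98- and 4.92-fold and no canonical peak, and TGIF1, a homeobox gene, 15.5-, 5.94- and 4.86-fold against 14.03-fold.

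Other runs stood over a raised background. The 6 peaks of OSBPL5, a lipid transfer gene, had 18 to 43 fragments over local backgrounds of 2.75 to 5.01, above the genome-wide 0.853, and 3.16- to 9.92-fold. The 4 of PGAP2, a GPI anchor gene on the same chromosome, had 20 to 24 over 4.02 to 6.89, and 2.92- to 4.75-fold. The part of background in these runs was not tested.

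CpG content was compared over the 300 bp windows of the RefSeq table, which runs from 250 bases before to 50 after a start and matched 671 of the 794 genes by symbol. The table lists few alternative starts, and 230 of them had a counted peak within 1000 bp. Their median CpG ratio, observed over expected, was 0.790 (quartiles 0.508 and 0.916), and 67.8% reached 0.6. Alternative starts without a peak, 3335 of them, had a median of 0.316, and 21.98% reached 0.6. Canonical starts with a peak had 0.892 and 95.6%, and those without 0.713 and 59.6%. Across these 4 groups, bound alternative starts lay between bound and unbound canonical ones by median.

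Of the bound alternative starts, 111 lay over 10 kb from their canonical start, with a median ratio of 0.824, and 70.3% reached 0.6. The unbound canonical starts of all genes bound only at an alternative start, 311 in the table, had a median of 0.795, and 74.3% reached 0.6. That is about the level of bound alternative starts, so the low canonical CpG counts of FURIN and PRKACB printed above are not typical of these genes. The 108 such starts of genes bound only beyond 10 kb had 0.724 and 63.0%. Over all 21418 starts in the table the median was 0.743, and 62.9% reached 0.6.

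**Figure D5:**
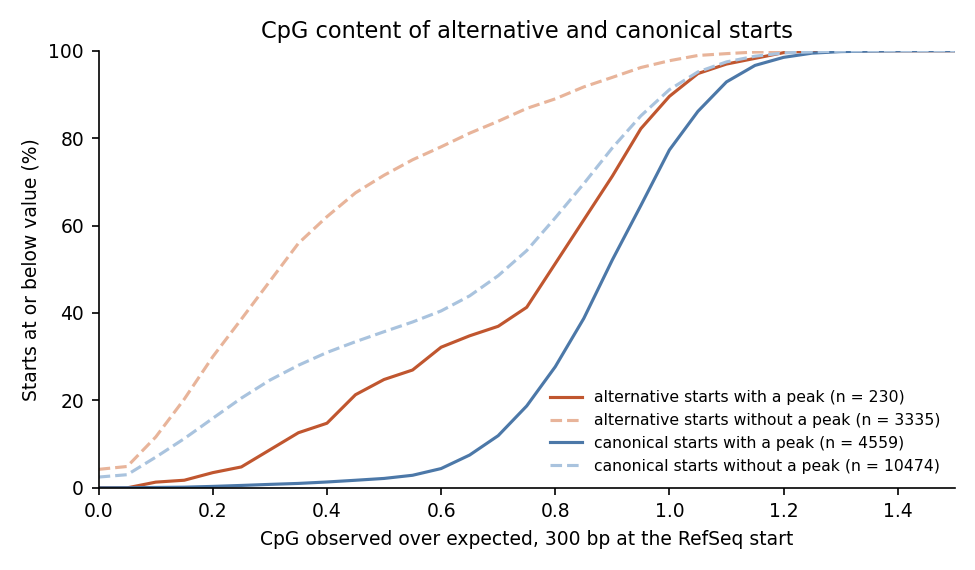
Cumulative share of RefSeq starts (percent, vertical axis) by CpG observed over expected in 300 bp (horizontal axis), for alternative and canonical starts with a peak (solid) and without (dashed). Alternative starts without a peak rise first and canonical starts with a peak last, with medians of 0.316 and 0.892, and bound alternative starts lie between, at 0.790.

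The windows were searched for 3 short motifs on both strands. GGGCGG, the core of the GC box, was present in 65.2% of bound and 26.8% of unbound alternative starts, and in 78.4% of bound and 56.1% of unbound canonical ones, against 56.9% of all starts. CCGGAAG, an ETS family motif, was present in 11.3% and 3.66%, then 23.8% and 11.6%, against 12.9%. TATAAA, the TATA box, was present in 7.39% and 12.9%, then 4.58% and 11.4%, against 9.40%. The first 2 motifs hold CpG or are rich in G and C, and CpG content moved with the same groups. Its part in these shares was not tested.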

How the data were processed

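The deposited list was called with MACS2 2.1.1.20160309 at a p cutoff of 1e-05 on 1 ChIP library with the input as control, per the file headers, where the ChIP library bears a name not found in the labels. Per the submitters' processing notes, fastp 0.19.6, Bowtie2 and deepTools were used. The deposited pileup is a coverage signal, and the deposited fold enrichment a ratio to local background. Significance was deposited as −log10 p and as −log10 q, per the file headers. Peaks were ranked by −log10 p, since the headers also say that q was not calculated.

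The submitters' notes name GRCh37, but summits met starts at GRCh38 positions, so coordinates were read as GRCh38. Starts were the original GRCh38 positions recorded in the version of the GENCODE 44 annotation lifted to GRCh37, so none was converted here. Starts absent from that lifted version could not be counted. Local background was recovered from pileup and fold with a pseudocount of 1. Within 0.001 of the lowest value it was called genome-wide. A RefSeq start matched an annotated start within 100 bp. Analyses used Python 3.11.15, pandas 2.3.3 and scipy 1.17.1. The assignment of peaks was tested on simulated data. There genes lay far apart, each with a single alternative start well away from the canonical one. Starts close together and windows shared by several starts or genes were not simulated. Peak sequences were not used here, since no GRCh38 genome was at hand.

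Members and lists were chosen with earlier results of these data known. Genes were named by a rule: the 10 most significant peaks, the 10 highest genes with a peak only at an alternative start, the 5 highest with both, the 5 longest and 5 shortest distances, up to 10 genes with several peaks, 3 peaks on each side of each threshold, up to 5 per list, and ING and MYST genes. TPM1, NR3C1, OSBPL5, PGAP2 and others so marked lie outside it and were chosen after their values were seen. Alternatives varied the window, the canonical distance, the transcripts and the peaks kept.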

Additional observations from a re-analysis of the deposited data

How the results depend on the processing

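Of 65 values under the alternatives, 41 moved by less than their counting interval or 1.5 times and 24 by more; without a replicate, stability between experiments could not be judged, and at a median of 12 fragments a missing canonical peak may lie below the depth. Against 969 peaks, 395 genes with a peak only at an alternative start, 51.1% with a canonical partner and 2566 bp between starts, a window of 500 bp gave 642 peaks and 3064.5 bp. A canonical distance of 3000 bp gave 425 peaks, 199 genes, 42.4%, 20063 bp and a width of 293 bp. Basic transcripts gave 494 peaks, 223 genes, 46.8%, 70.4% of summits downstream and 355.5 bp of width, and protein_coding transcripts 69.0% downstream. The more significant peaks gave 456 peaks, 261 genes, 36.4%, 1795 bp between starts, 8.09-fold and 537 bp of width, as they keep the stronger peaks by construction. Peaks at the genome-wide background gave 624 peaks and 37.02%, and any overlap as a canonical peak 65.9%. Leaving out peaks that reach their own gene's canonical window, added after seeing the data with 2 other settings on transcripts, gave 5280 bp between starts and 297 bp of width. Beyond what is built into a setting, the cause was not tested. No paired analysis was possible because each group has 1 library.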
